A study of Mus musculus with 26 samples.

Results

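The enzymes that write, maintain and oxidise 5-methylcytosine were examined in 26 mouse exon arrays: the DNA methyltransferases Dnmt1, Dnmt3a, Dnmt3b and Dnmt3l, the Tet dioxygenases Tet1, Tet2 and Tet3, and their partners Uhrf1, Tdg and Trim28. A probe set was taken when the platform annotation gave it a member's symbol and no other. All 10 genes were found, with 268 of the 306069 probe sets that carry a single symbol, and they were 10 of the 18341 genes tested. A gene value is the median over the brighter 50% of the probe sets of a gene, with brightness taken as the mean over the 26 arrays, in log2 units of RMA intensity. The labels describe every sample as mouse ES or embryoid body (EB) material and give 1 grouping, the strain. Arrays ES1 to ES14 are labelled 129S2/SvPas (n = 14) and arrays ES15 to ES26 are labelled C57BL/6 (n = 12), and no treatment, time, genotype or age separates them in the labels. Neither scan dates nor batches are labelled. Strain changes once along the titles, so a batch that also changed with title order cannot be told apart from it.

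Mammalian DNA is methylated mainly on the cytosine of CpG dinucleotides. Dnmt1, brought to newly replicated DNA by Uhrf1, copies the pattern after each division, Dnmt3a and Dnmt3b set new marks, and Dnmt3l, which has no catalytic activity of its own, stimulates them. Tet enzymes oxidise 5-methylcytosine, Tdg excises the most oxidised forms, and Trim28, a corepressor recruited by zinc-finger proteins, holds imprinted regions and retrotransposons in a methylated, silent state. In mouse, naive ES cells are known for strong expression of Tet1, Tet2 and Dnmt3l, and Dnmt3b rises as they leave that state.

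Cell type markers differed widely between arrays of the same label. The 12 arrays ES1 to ES12 carried high myeloid markers, with a mean over 9 listed genes between 11.11 and 12.31, against 5.50 to 6.74 in the other 14 arrays, and the neutrophil granule gene Ngp reached 11.02 to 13.50. Their mean over 8 naive pluripotency markers lay between 5.31 and 5.87. Pou5f1, the pluripotency factor Oct4, lay between 4.58 and 6.12, far below its values in ES21 to ES24. The labels cover both ES and EB material, and which of these the arrays hold was not tested. ES13 and ES14 share the 129S2/SvPas label but had a pluripotency mean of 7.91 to 8.78, a primitive streak mean of 9.14 to 11.08 (T, Mixl1 and Eomes) and no raised myeloid markers. Their primitive erythroid mean was 7.08 to 9.88, against 5.81 to 6.21 in ES21 to ES24. The arrays labelled C57BL/6 fell into 3 runs. ES15 to ES20 had high primitive erythroid (9.67 to 11.95) and fibroblast (9.25 to 11.65) means. ES21 to ES24 had the highest pluripotency mean, 11.10 to 11.51, with Pou5f1 at 11.24 to 11.70. Their primed epiblast mean (Fgf5, Otx2 and Pou3f1) was highest too, with a median of 7.69, against 7.34 in ES13 and ES14, and these ranges overlapped. Their fibroblast mean was 8.16 to 9.21, against 5.83 to 6.29 in ES1 to ES12. ES25 and ES26 had a fibroblast mean of 10.02 to 10.75 and a pluripotency mean of 7.34 to 8.33. These runs of titles are no groups of the labels and were drawn with the values in view, so values across them are given as a description with no test. The part of these markers in the member values was not tested, and in bulk RNA fewer cells of a type and less RNA per cell cannot be told apart.

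RefSeq on build GRCm38.p6 matched all 10 genes, at 17 start sites. The 250 bases before the start are shown for Dnmt3a and Dnmt3l, which have several start sites and probe sets that departed from their gene, and for Tet1, which spanned the widest range of the members, with every CG in capitals and each sequence written 5′ to 3′ on the gene's strand. Dnmt3a has an upstream start and another start 84764 bases further into the gene. Dnmt3l has starts 7555 and 13048 bases after its first one.
Dnmt3a start 1, chr12:3806730-3806979 (+): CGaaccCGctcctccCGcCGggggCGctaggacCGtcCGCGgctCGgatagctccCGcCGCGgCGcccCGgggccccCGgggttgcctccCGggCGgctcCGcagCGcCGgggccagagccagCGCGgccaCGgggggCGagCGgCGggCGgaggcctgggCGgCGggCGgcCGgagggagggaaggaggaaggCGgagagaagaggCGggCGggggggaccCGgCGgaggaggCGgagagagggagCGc
Dnmt3a start 3, chr12:3891494-3891743 (+): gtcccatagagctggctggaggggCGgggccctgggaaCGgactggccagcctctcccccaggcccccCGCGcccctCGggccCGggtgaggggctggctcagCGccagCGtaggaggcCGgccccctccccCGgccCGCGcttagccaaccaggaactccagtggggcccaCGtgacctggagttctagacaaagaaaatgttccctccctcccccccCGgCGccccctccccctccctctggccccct
Dnmt3l start 1, chr10:78042037-78042286 (+): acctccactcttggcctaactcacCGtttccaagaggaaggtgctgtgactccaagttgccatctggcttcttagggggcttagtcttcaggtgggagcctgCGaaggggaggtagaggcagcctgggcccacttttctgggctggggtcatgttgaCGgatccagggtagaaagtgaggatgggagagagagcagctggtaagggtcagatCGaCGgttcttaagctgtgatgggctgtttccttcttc
Dnmt3l start 2, chr10:78049592-78049841 (+): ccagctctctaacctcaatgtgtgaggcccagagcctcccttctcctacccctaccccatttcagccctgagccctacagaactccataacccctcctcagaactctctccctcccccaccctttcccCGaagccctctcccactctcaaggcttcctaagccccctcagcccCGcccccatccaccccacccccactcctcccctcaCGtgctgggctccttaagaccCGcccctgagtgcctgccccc
Dnmt3l start 3, chr10:78055085-78055334 (+): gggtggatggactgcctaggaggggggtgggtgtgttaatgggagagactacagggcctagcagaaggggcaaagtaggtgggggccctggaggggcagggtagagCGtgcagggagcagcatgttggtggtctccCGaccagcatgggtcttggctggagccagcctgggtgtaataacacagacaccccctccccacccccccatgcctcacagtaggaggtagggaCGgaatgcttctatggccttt
Tet1 start 1, chr10:62887325-62887574 (-): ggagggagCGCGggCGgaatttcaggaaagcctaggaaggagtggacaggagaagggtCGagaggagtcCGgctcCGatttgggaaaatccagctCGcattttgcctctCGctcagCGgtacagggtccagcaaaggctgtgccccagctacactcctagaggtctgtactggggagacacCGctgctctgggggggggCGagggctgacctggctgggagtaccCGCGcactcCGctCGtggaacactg
The first Dnmt3a window held 38 CG, a count that 1.88% of all 32851 RefSeq windows of the same length reached, while the internal window held 15 (reached by 27.3%). The Dnmt3l windows held 5, 4 and 3 CG, counts reached by 55.6%, 62.2% and 71.0% of windows. The Tet1 window held 15 CG. CG occurred in 92.1% of all windows. The windows were also searched on both strands for the GC box core GGGCGG (in 32.7% of all windows), for the box CCAAT (33.8%) and for the motif TATAAA (12.4%), which do not overlap each other; GGGCGG holds a CG. The GC box core was present 5 times in the first Dnmt3a window, 1 time in the internal one, 2 times in the Dnmt3l window of start 2 and 1 time in that of Tet1. The other motifs were not found in these windows. These matches describe letters only. The platform annotation gives no position for a probe set, so no probe set below is assigned to a start site or an isoform.

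Between the strain labels, 1 member was higher in arrays labelled 129S2/SvPas (Dnmt1) and 3 were lower (Dnmt3b, Tet1 and Trim28), in limma's two-sided moderated test with Benjamini-Hochberg adjustment over 18341 genes at a threshold of 0.05. Over all genes, 21.1% were called higher and 22.1% lower, so the members were called about as often as any gene. Without ES13 and ES14 the count was 3 higher (Dnmt1, Tet2 and Tet3) and the same 3 lower, against 25.2% and 25.2% of all genes. Without ES1 to ES12, which leaves 2 arrays of the 129S2/SvPas label, limma called no member, and 1 of all genes higher (0.00545%) and 0 lower (0.0%), with 1814 genes at an unadjusted p below the threshold. The labels name no separate cultures or animals, so the p-values refer to the spread among these samples alone. That spread includes the differences between unlike runs pooled under 1 label, and within a run it may be technical. The arrays of a label are therefore not shown to be independent replicates of a strain.

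**Figure D1:**
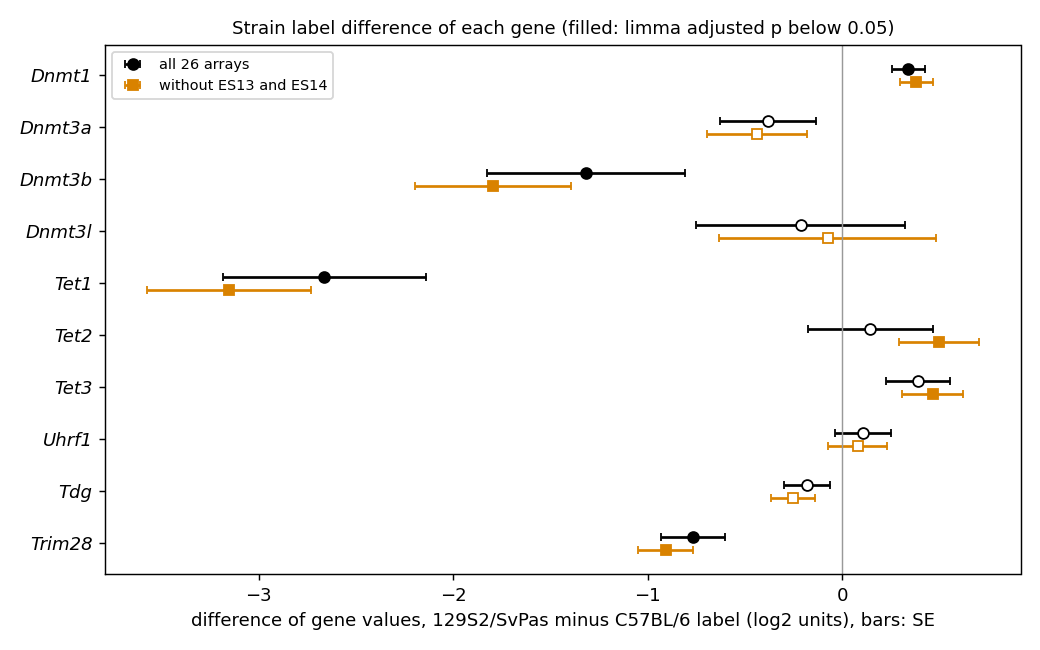
Difference of each member's gene value, arrays labelled 129S2/SvPas minus arrays labelled C57BL/6, on the log2 scale, with all arrays and without ES13 and ES14; bars are standard errors and filled points passed the adjusted threshold. Tet1 had the largest negative difference, -2.66 with all arrays and -3.15 without ES13 and ES14, and Dnmt1 lay above 0 in both.

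Dnmt1, the maintenance methyltransferase, varied little over the series, by 1.03 log2 units from the lowest to the highest array. In arrays labelled 129S2/SvPas it had a lowest, median and highest value of 10.84, 11.23 and 11.58, and in arrays labelled C57BL/6 of 10.55, 10.95 and 11.27. The label ranges overlapped, and most arrays from ES1 to ES12 lay above most arrays from ES15 to ES24. ES25 and ES26, labelled C57BL/6, had 11.15 and 11.27, within the range of ES1 to ES12 (10.98 to 11.58). The mean was 11.25 ± 0.21 (SD, n = 14) in arrays labelled 129S2/SvPas and 10.91 ± 0.21 (SD, n = 12) in arrays labelled C57BL/6. The difference was 0.34 ± 0.086 (SE, limma adjusted p = 0.00214), and 0.38 without ES13 and ES14 (limma adjusted p = 0.000453). It was 0.19 after quantile normalization (limma adjusted p = 0.0343), and 0.093 without ES1 to ES12 (limma adjusted p = 0.908). Uhrf1, which recruits Dnmt1 to hemimethylated DNA, averaged 11.15 ± 0.28 in arrays labelled 129S2/SvPas and 11.05 ± 0.47 in arrays labelled C57BL/6 (SD, n = 14 and n = 12), a difference of 0.10 ± 0.14 (SE, limma adjusted p = 0.598). Its spread in C57BL/6 came from ES15 to ES20, which ran between 10.12 and 11.43, while ES21 to ES24 lay between 11.25 and 11.42. The mean over 18 S phase and proliferation genes had the same lowest run, 9.89 to 10.91 in ES15 to ES20, against 10.44 to 10.98 in the other 20 arrays, and its part in the Uhrf1 values was not tested.

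Dnmt3a, a de novo methyltransferase, was highest in ES15 to ES20 and lowest in ES25 and ES26. Both runs had high fibroblast means, 9.25 to 11.65 and 10.02 to 10.75. Arrays ES15 to ES20 had 9.64, 9.93, 10.34, 10.46, 10.31 and 10.48, above every one of the other 20 arrays. ES25 and ES26 had 7.91 and 7.77, below every one of the other 24. The arrays ES1 to ES12 (8.68 to 9.41), ES13 and ES14 (9.61 and 9.32) and ES21 to ES24 (9.05, 9.02, 9.56 and 9.36) lay between them and overlapped each other. The run ES15 to ES20 was above all other arrays for 1.76% of genes, and ES25 and ES26 were below all other arrays for 2.46%. Since the highest and the lowest run both carry the C57BL/6 label, the label means were close, 9.11 ± 0.25 in arrays labelled 129S2/SvPas and 9.49 ± 0.92 in arrays labelled C57BL/6 (SD, n = 14 and n = 12). The difference of -0.38 ± 0.25 (SE) did not pass the test (limma adjusted p = 0.224), but did with array weights (-0.65, limma adjusted p = 0.00835). These weights come from how far each array lies from its label mean, not from a measured quality.

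Dnmt3b, the other de novo methyltransferase, which is prominent in the early embryo, was high in 6 arrays of both labels. ES13 and ES14 had 11.23 and 10.12, and ES21 to ES24 had 10.02, 10.27, 10.66 and 11.03. Arrays ES15 to ES20 ran lower, at 9.77, 9.56, 9.24, 8.56, 8.18 and 8.14, without overlap with ES21 to ES24. The lowest values were in ES1 to ES12 (6.45 to 8.20, median 7.15) and in ES25 and ES26 (6.52 and 7.35), which overlapped. By label, Dnmt3b averaged 7.79 ± 1.35 in arrays labelled 129S2/SvPas and 9.11 ± 1.38 in arrays labelled C57BL/6 (SD, n = 14 and n = 12). The difference, 129S2/SvPas minus C57BL/6, was -1.32 ± 0.51 log2 units (SE, limma adjusted p = 0.0374). It was -1.80 without ES13 and ES14 (limma adjusted p = 0.000505). Without ES1 to ES12 the sign turned (1.57), and with arrays centred on their median gene value the call was lost (limma adjusted p = 0.0585).

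Dnmt3l, the catalytically inactive cofactor of Dnmt3a and Dnmt3b, was highest in ES21 to ES24, at 10.13, 9.99, 10.87 and 11.00. These lay above all of the other 22 arrays, a pattern of 2.38% of genes. The next run was ES1 to ES12, between 7.44 and 8.07. ES13 and ES14 had 7.47 and 6.01, ES15 to ES20 lay between 5.78 and 6.64, and ES25 and ES26 had 6.44 and 7.71. The order of the runs below ES21 to ES24 depended on which probe sets were summarised. With the median over all 22 probe sets, ES1 to ES12 lay between 4.78 and 5.55, overlapping ES15 to ES20 (5.09 to 5.42), while ES21 to ES24 stayed apart at 9.18 to 10.20. The label difference of -0.21 ± 0.54 (SE) did not pass the test (limma adjusted p = 0.783), with means of 7.57 ± 0.48 in arrays labelled 129S2/SvPas and 7.79 ± 2.07 in arrays labelled C57BL/6 (SD, n = 14 and n = 12). Over all probe sets the difference was -1.66 (limma adjusted p = 0.0156).

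**Figure D2:**
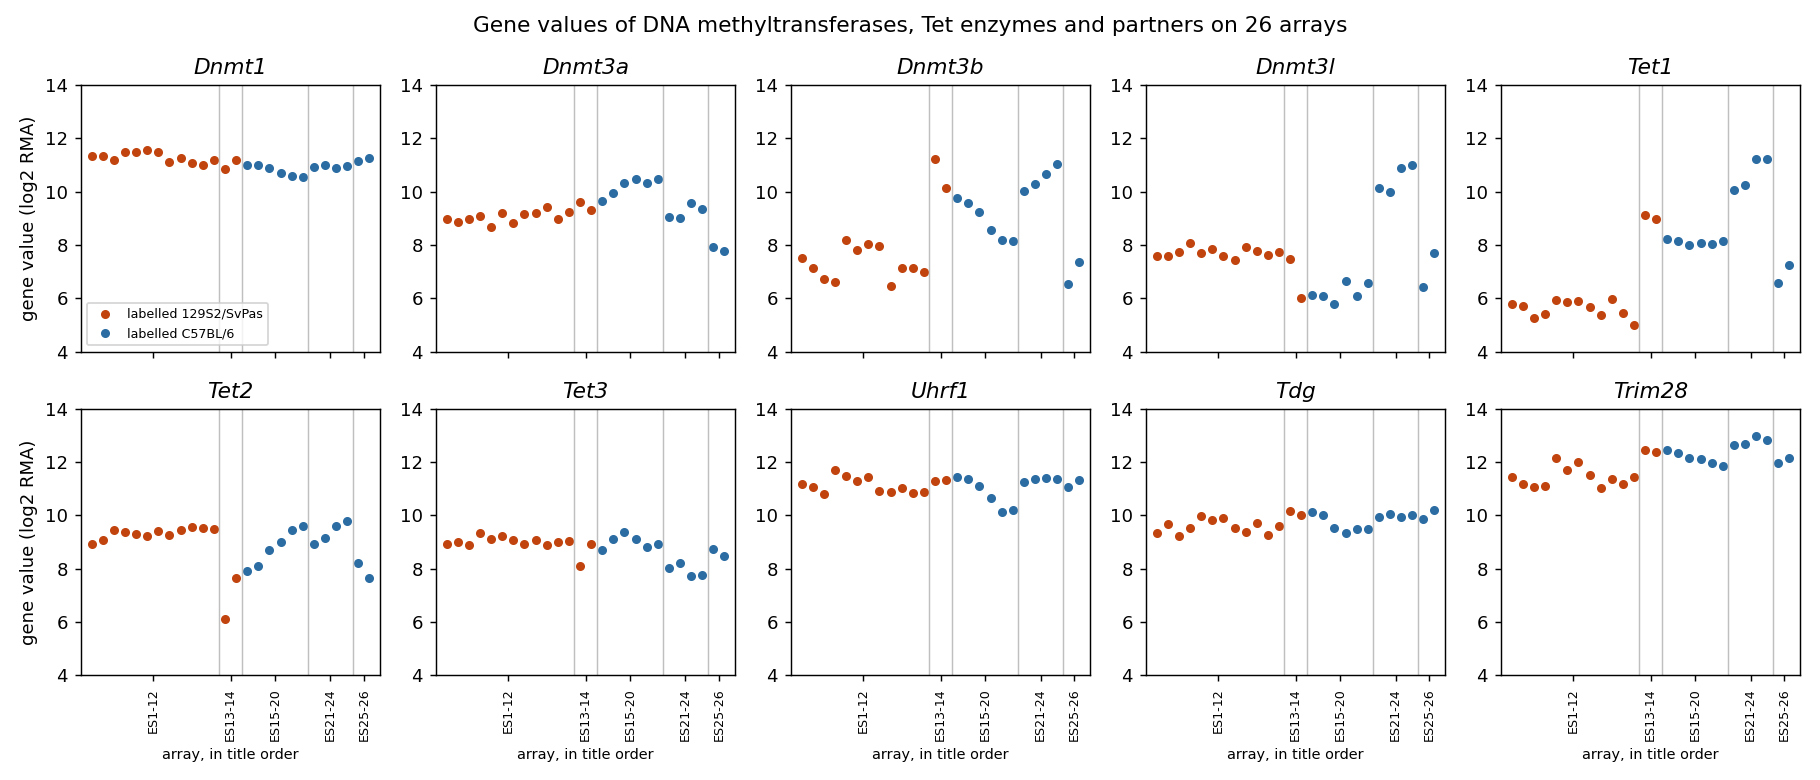
Gene values of the 10 members on each of the 26 arrays in title order, in log2 units of RMA intensity; colours give the strain label and vertical lines separate the runs of titles. Tet1 and Dnmt3l are highest in ES21 to ES24, Dnmt3a in ES15 to ES20, and Tet2 is lowest in ES13 and ES14.

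Tet1, the dioxygenase most abundant in naive ES cells, separated every run from its neighbours in the order of levels. ES21 to ES24 were above all other arrays, a pattern of 2.38% of genes, with 10.07, 10.26, 11.21 and 11.23, followed by ES13 and ES14 with 9.14 and 8.96. ES15 to ES20 came next, between 8.00 and 8.21, then ES25 and ES26 with 6.58 and 7.23. The lowest run was ES1 to ES12, between 5.00 and 5.97, near the array medians of 5.32 to 5.51, and 6.42% of genes had this run below all others. The same order held for the pluripotency factor Nanog over the run medians: 11.01 in ES21 to ES24, 8.96 in ES13 and ES14, 8.52 in ES15 to ES20, 7.64 in ES25 and ES26 and 6.24 in ES1 to ES12. Nanog ranges overlapped between ES13 and ES14 (8.65 to 9.28) and ES15 to ES20 (8.31 to 9.16), unlike those of Tet1. The medians of Pou5f1 had this order too. Those of Zfp42, from the same marker list, did not: 7.31 in ES25 and ES26, 6.95 in ES15 to ES20 and 6.49 in ES13 and ES14. By label, Tet1 averaged 6.10 ± 1.28 in arrays labelled 129S2/SvPas and 8.77 ± 1.53 in arrays labelled C57BL/6 (SD, n = 14 and n = 12). The difference, 129S2/SvPas minus C57BL/6, was -2.66 ± 0.52 log2 units (SE, limma adjusted p = 0.000169). It was -3.15 without ES13 and ES14 (limma adjusted p = 4.38e-07). Without ES1 to ES12 the difference was 0.29 and passed no test.

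Tet2, the Tet enzyme with the widest role in blood cells, had another order of runs than Tet1. It was lowest in ES13 and ES14, at 6.11 and 7.63, below all of the other 24 arrays, a pattern of 2.26% of genes. ES1 to ES12 lay between 8.92 and 9.57 and ES21 to ES24 had 8.94, 9.15, 9.59 and 9.79, so that the arrays with myeloid markers and those with pluripotency markers overlapped. ES15 to ES20 spread from 7.91 to 9.58 and ES25 and ES26 had 8.20 and 7.66. The labels averaged 8.98 ± 0.96 for 129S2/SvPas and 8.84 ± 0.72 for C57BL/6 (SD, n = 14 and n = 12), a difference of 0.14 ± 0.32 (SE, limma adjusted p = 0.754). Leaving out ES13 and ES14 gave 0.50 (limma adjusted p = 0.0472), and array weights gave 0.54 (limma adjusted p = 0.0294). Without ES1 to ES12 the sign turned, to -1.97 (limma adjusted p = 0.21).

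Tet3, the form best known from the zygote, was lowest in the arrays where Tet1 was highest. ES21 to ES24 had 8.02, 8.21, 7.71 and 7.78, and of the other 22 arrays ES13 alone fell in that range, at 8.08. ES1 to ES12 lay between 8.88 and 9.35, ES15 to ES20 between 8.70 and 9.38, and ES25 and ES26 had 8.73 and 8.47. At the probe set level, all of ES21 to ES24 lay below all other arrays for 6 of 13 Tet3 probe sets, against 0.438% of all probe sets. Probe sets of 1 gene are not independent, so this count describes the gene and adds no evidence to its value. The label difference of 0.39 ± 0.16 (SE) lay just above the threshold (limma adjusted p = 0.0592), with means of 8.97 ± 0.29 for 129S2/SvPas and 8.58 ± 0.54 for C57BL/6 (SD, n = 14 and n = 12). It passed without ES13 and ES14 (0.46, limma adjusted p = 0.0159) and with arrays centred on their median gene value (0.52, limma adjusted p = 0.00907). It was -0.077 without ES1 to ES12 (limma adjusted p = 0.973).

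Tdg, the glycosylase that removes oxidised methylcytosines, varied little. It averaged 9.65 ± 0.30 in arrays labelled 129S2/SvPas and 9.83 ± 0.29 in arrays labelled C57BL/6 (SD, n = 14 and n = 12), a difference of -0.18 ± 0.12 (SE) that did not pass the test (limma adjusted p = 0.225). Its lowest values were in ES1 to ES12 (9.21 to 9.99) and ES15 to ES20 (9.34 to 10.11), which overlapped, and ES21 to ES24 lay within 9.94 to 10.03. Trim28 was highest in ES21 to ES24, at 12.64, 12.66, 12.97 and 12.82, above all other 22 arrays, a pattern of 2.38% of genes. ES13 and ES14 had 12.44 and 12.36, ES15 to ES20 lay between 11.86 and 12.44, ES25 and ES26 had 11.95 and 12.13, and ES1 to ES12 lay between 11.03 and 12.14. By label, Trim28 averaged 11.57 ± 0.49 in arrays labelled 129S2/SvPas and 12.33 ± 0.37 in arrays labelled C57BL/6 (SD, n = 14 and n = 12). The difference, 129S2/SvPas minus C57BL/6, was -0.77 ± 0.16 log2 units (SE, limma adjusted p = 0.000415). It was -0.91 without ES13 and ES14 (limma adjusted p = 4.87e-06). Without ES1 to ES12 the difference was 0.07.

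Gene values were also compared between ES21 to ES24, the run with the highest pluripotency markers, and each other run, counting genes whose ranges did not overlap and whose medians lay at least 1 log2 unit apart. Dnmt3b, Dnmt3l, Tet1 and Trim28 were lower and Tet3 higher in ES1 to ES12, against 10.1% and 9.43% of all genes. Dnmt3b, Dnmt3l and Tet1 were lower and Dnmt3a and Tet3 higher in ES15 to ES20, against 5.16% and 5.11%. Dnmt3l, Tet1 and Tet2 were lower in ES13 and ES14, against 5.0%, and 5 members were lower in ES25 and ES26 (Dnmt3a, Dnmt3b, Dnmt3l, Tet1 and Tet2), against 4.29%. The 4 comparisons share the arrays ES21 to ES24, so their counts are not independent. How many single probe sets had the pattern of their gene differed between genes. Probe sets of 1 gene are not independent measures, so the counts below describe the genes and add no evidence to the gene values. ES21 to ES24 lay above all other arrays for 26 of 28 Tet1 probe sets, 18 of 22 of Dnmt3l and 17 of 24 of Trim28, against 1.64% of all probe sets. ES1 to ES12 lay below all others for 17 of 28 Tet1 probe sets (5.25% of all), ES13 and ES14 for 13 of 27 of Tet2 (1.61%), and ES25 and ES26 for 20 of 37 of Dnmt3a (1.59%). ES15 to ES20 lay above all others for 9 of 37 Dnmt3a probe sets (1.23%), and ES13 and ES14 for 1 of 23 Tdg probe sets (1.19%).

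To look for unequal change within a gene, each probe set was expressed relative to its gene by subtracting the gene value array by array, and 156023 probe sets above the median gene and median probe set were tested for a label difference larger than 1 log2 unit. The test covered 244 of the 268 member probe sets. It called 2 of them lower in arrays labelled 129S2/SvPas and none higher, against 0.319% and 0.341% of all probe sets. Both were probe sets of Dnmt3l. An unadjusted p below the threshold was found for 8 member probe sets, 5 of Dnmt3l and 3 of Tet1. Relative to its gene, probe set 4421447 averaged -3.60 in arrays labelled 129S2/SvPas and -0.58 in arrays labelled C57BL/6, a difference of -3.02 ± 0.34 (SE, limma adjusted p = 0.00129). Probe set 5514505 averaged -2.21 in arrays labelled 129S2/SvPas and 0.30 in arrays labelled C57BL/6, a difference of -2.51 ± 0.33 (SE, limma adjusted p = 0.0138). Without ES13 and ES14, 3 further Dnmt3l probe sets were lower (4588477, 4895448 and 4952110), as was 1 of Tet1 (4688562), and 2 of Tet1 were higher (4909043 and 4442574), against 1.11% of all probe sets lower and 1.1% higher in that fit. With no minimum difference, 32 of the 244 member probe sets were called in each direction, against 12.4% of all probe sets higher and 10.9% lower, which is near the background.

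The Dnmt3l probe sets split into sets that ranked ES1 to ES12 differently. The brightest, 5328229, lay between 9.27 and 9.89 in ES1 to ES12, between 6.78 and 7.57 in ES15 to ES20 and between 11.28 and 12.01 in ES21 to ES24. Probe set 5280387 behaved alike, with 8.60 to 9.41 in ES1 to ES12, 5.78 to 6.67 in ES15 to ES20 and 10.89 to 11.64 in ES21 to ES24. For both, ES1 to ES12 lay well above ES15 to ES20. Probe set 5514505 had the opposite order, with 4.30 to 5.74 in ES1 to ES12, 5.69 to 6.69 in ES15 to ES20 and 10.93 to 11.76 in ES21 to ES24. Probe set 4421447 lay between 2.92 and 4.92 in ES1 to ES12, which is below the array medians, and between 9.95 and 11.21 in ES21 to ES24. Between ES1 to ES12 and ES21 to ES24, 5 of the 13 tested Dnmt3l probe sets were lower relative to the gene (no overlap, medians at least 1 apart), against 2.61% of all probe sets. The Dnmt3l level of ES1 to ES12 therefore rested on a subset of its probe sets, and which start site or transcript these probe sets lie in was not determined. Another, 5585571, stayed between 7.10 and 9.04 on all 26 arrays.

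**Figure D3:**
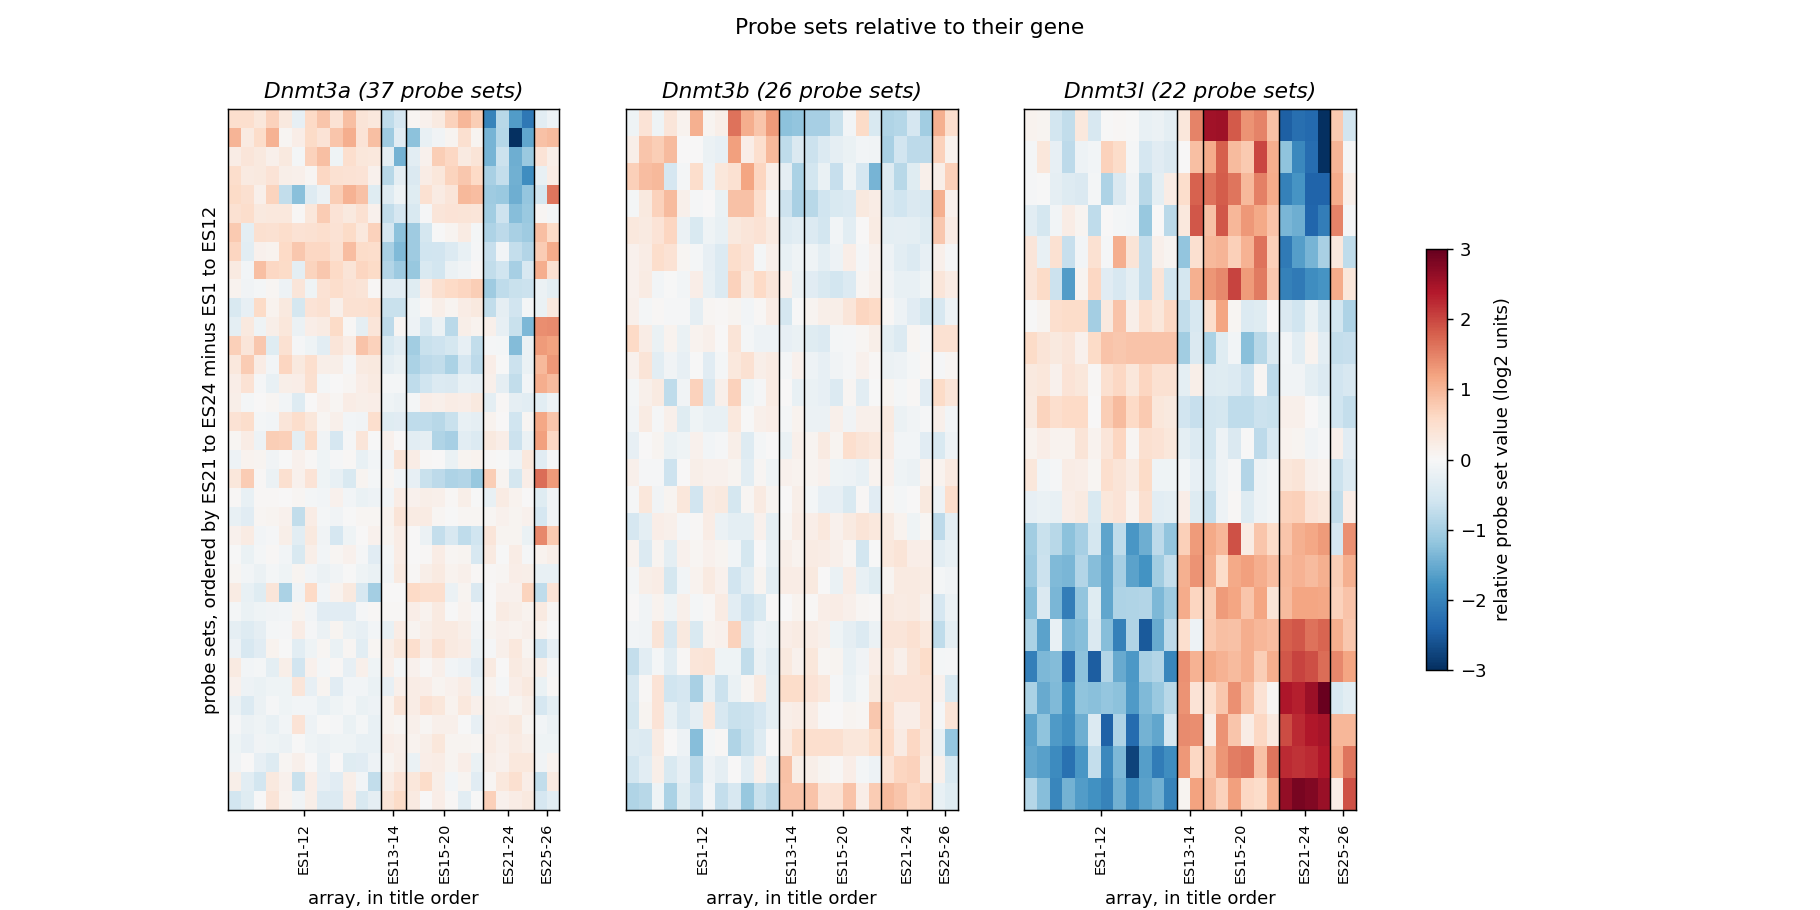
Probe sets of Dnmt3a, Dnmt3b and Dnmt3l relative to their gene on each array: the colour is the probe set value minus the gene value, less its mean over 26 arrays, in log2 units. Rows are ordered within each gene by the value in ES21 to ES24 minus that in ES1 to ES12. For Dnmt3l, a block of probe sets is low (blue) in ES1 to ES12, and for Dnmt3a a block is low in ES21 to ES24.

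No Dnmt3a probe set passed the test within genes by label, and none of the 34 tested had an unadjusted p below the threshold; with no minimum difference limma called 3 of 34 lower, against 10.9% of all probe sets, and none higher, against 12.4%. The 3 highest relative differences were 0.92 (4523838), 0.66 (5505365) and 0.57 (5379771), and the 3 lowest were -0.25 (4934720), -0.23 (5325361) and -0.22 (5460114). Between runs the probe sets did depart from each other. Relative to the gene, 7 of 34 were higher in ES1 to ES12 than in ES21 to ES24 (2.55% of all probe sets), 5 of 34 in ES15 to ES20 than in ES21 to ES24 (0.786%), 13 of 34 in ES25 and ES26 (0.668%), and 1 of 34 in ES13 and ES14 (0.94%). None of the 34 was lower in any of these comparisons, against 2.61%, 0.793%, 0.74% and 0.647% of all probe sets. The Dnmt3a gene value itself had a median of 7.84 in ES25 and ES26, against 9.20 in ES21 to ES24. A probe set that stayed level would thus count as higher in ES25 and ES26. That count does not by itself show probe sets that rose. Probe set 5505365, higher in all 4, lay between 7.83 and 9.44 in ES15 to ES20, against 5.16 to 6.32 in ES21 to ES24. The brightest probe set, 4644655, lay between 11.70 and 12.41 in ES15 to ES20, against 10.84 to 11.50 in ES21 to ES24, so the fainter one differed more. Others hardly moved: 5439439 stayed between 9.56 and 10.44 on all 26 arrays, including ES25 and ES26 (9.70 to 10.25), where 4644655 was at 9.41 to 9.58. Probe sets of 1 gene thus differed in how much they changed between runs, which the plot of relative values displays.

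Among the Dnmt3b probe sets, none of 26 passed the test within genes or had an unadjusted p below the threshold, and limma with no minimum difference called 2 of 26 in each direction, against 12.4% of all probe sets higher and 10.9% lower. The 3 lowest relative differences were -0.94 (5074130), -0.48 (5253132) and -0.45 (4582591), and the 3 highest were 0.68 (4494368), 0.62 (5091271) and 0.62 (5458911). Between ES1 to ES12 and ES21 to ES24, 1 of 26 was lower (5074130) and 2 were higher (4494368 and 5091271) relative to the gene, against 2.61% and 2.55% of all probe sets. Between ES25 and ES26 and the arrays ES21 to ES24, 2 of 26 were lower (5074130 and 5253132) and 3 higher (4494368, 5091271 and 5211881), against 0.74% and 0.668%. Probe set 5074130 lay between 5.13 and 7.43 in ES1 to ES12, against 10.44 to 11.18 in ES21 to ES24. Among the Tet1 probe sets, 4 of 21 were higher and 4 of 21 lower relative to the gene in ES1 to ES12 than in ES21 to ES24, against 2.55% and 2.61% of all probe sets. Probe set 4442574 stayed between 5.17 and 7.07 on all 26 arrays, while 4688562 lay between 2.31 and 4.17 in ES1 to ES12, against 9.84 to 11.11 in ES21 to ES24. A probe set that does not follow its gene has a relative value that mirrors the gene's own change.

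Of 96 distinct genes tested in 7 lists related to the members, 16 were higher (16.7%) and 28 lower (29.2%) in arrays labelled 129S2/SvPas, against 21.1% and 22.1% of all genes. The median difference was -0.12, against -0.0015 over all genes. With arrays centred on their median gene value, which moves the median of all genes to 0.13 and the share of higher calls from 48.9% to 66%, the count was 22 higher and 19 lower, against 31.3% and 16.1% of all genes. Centring moved the counts of single lists too: the Tet cofactors became 2 higher and 2 lower, the methyl-CpG binding proteins 4 higher and 1 lower, and the Trim28 list 2 higher and 7 lower, while the S phase list kept 5 higher and none lower. Without ES1 to ES12 no gene of the lists was called. The labels compared here also differ in the myeloid and pluripotency markers given above, and the part of these cell types in the list values was not tested.

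Regulators of the methyltransferases had 2 of 16 genes higher and 5 lower, with a median difference of -0.21. Zfp42 (Rex1), a marker of naive ES cells, averaged 4.56 ± 0.87 in arrays labelled 129S2/SvPas and 8.55 ± 2.35 in arrays labelled C57BL/6 (SD, n = 14 and n = 12; limma adjusted p = 1.38e-05). It lay between 11.36 and 11.95 in ES21 to ES24 and at most at 8.19 elsewhere. Dppa3, which protects DNA from demethylation in the zygote and holds back Uhrf1, averaged 4.07 ± 0.48 in arrays labelled 129S2/SvPas and 5.87 ± 1.32 in arrays labelled C57BL/6. Cdca7, a partner of the remodeller Hells, and Trdmt1, a tRNA methyltransferase, were higher by 0.64 and 0.63. Of the 8 Tet cofactors and binding partners, 2 were lower and none higher, with a median of -0.05. They were Cxxc4 (-1.11) and Cxxc5 (-1.01), CXXC-domain proteins known to bind and lower Tet2 in mouse.

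Of 7 methyl-CpG binding proteins, 2 were higher and 2 lower, with a median of 0.26. Mbd1 averaged 10.13 ± 0.73 in arrays labelled 129S2/SvPas and 8.98 ± 0.19 in arrays labelled C57BL/6, and Mbd2 averaged 11.14 ± 0.74 in arrays labelled 129S2/SvPas and 10.22 ± 0.57 in arrays labelled C57BL/6. Mbd3, a subunit of the NuRD complex, differed by -0.57, and Zbtb4, a zinc-finger reader, by -0.49, a call lost under several alternatives. Of 17 base excision repair and deamination genes, 4 were higher and 6 lower, with a median of -0.24. Neil3, a DNA glycosylase, was higher by 1.03, the stress-induced Gadd45a and Gadd45b by 1.01 and 0.90, and Parp1, a sensor of DNA breaks, differed by -0.74. Gadd45a and Gadd45b lost their calls under quantile normalization. Of 20 genes of the Trim28 corepressor and heterochromatin list, 1 was higher and 10 lower, with a median of -0.34. Zfp57, which brings Trim28 to methylated imprinted regions, averaged 7.31 ± 1.18 in arrays labelled 129S2/SvPas and 10.08 ± 0.99 in arrays labelled C57BL/6 (SD, n = 14 and n = 12; limma adjusted p = 4.99e-06). It lay between 11.31 and 11.42 in ES21 to ES24, and between 5.94 and 7.56 in ES1 to ES12. Trim24, a relative of Trim28, differed by -1.27, the histone methyltransferase Suv39h2 by -0.86 (a call lost under several alternatives) and the remodeller Chd3 by -0.84.

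The methyl donor cycle, which supplies S-adenosylmethionine, had 2 of 15 genes higher and 4 lower, with a median of -0.08. Gldc, the glycine decarboxylase, averaged 6.49 ± 1.27 in arrays labelled 129S2/SvPas and 8.71 ± 1.23 in arrays labelled C57BL/6, and Adk, the adenosine kinase, differed by -0.60. The mitochondrial folate enzymes Mthfd2 and Shmt2 were higher by 1.45 and 0.79. Of 18 S phase and proliferation genes, 5 were higher and none lower, with a median of 0.09. They included Mki67 (0.72), Gmnn (0.70), Ccne2 (0.69) and Mcm6 (0.48). All values named here for the lists passed limma's test over all genes with every array in the fit.

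**Figure D4:**
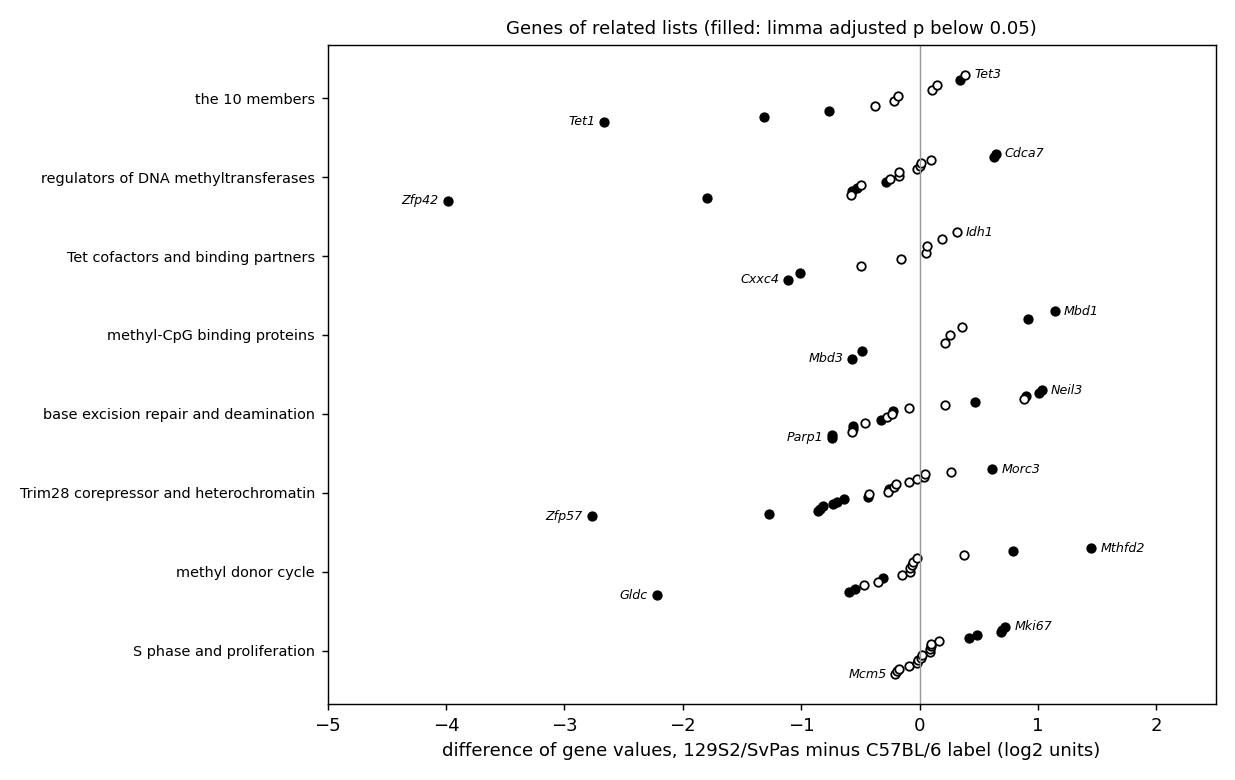
Difference of the 10 members (top row) and of every tested gene in the 7 related lists, arrays labelled 129S2/SvPas minus arrays labelled C57BL/6, on the log2 scale; each point is a gene, filled points passed the adjusted threshold, and the extremes of each row are named. Zfp42 lies lowest at -3.99 and Mthfd2 highest at 1.45.

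For the 5 members that spanned at least 2 log2 units, the tested genes with the most similar pattern were found by the root mean square difference after both were centred on their mean over 26 arrays. Tet1 was nearest to EU599041 (0.336 log2 units), Nanog (0.387) and Gldc (0.418). Dnmt3l was nearest to Tcl1 (0.652), Zfp296 (0.67) and Clgn (0.723), and Dnmt3b to Kcnk1 (0.493), Atf7ip2 (0.559) and Sult4a1 (0.561). Dnmt3a was nearest to Eng (0.316), Klk1b11 (0.329) and Zswim6 (0.33), and Tet2 to Ddx58 (0.499), Bcl3 (0.508) and Ifi30 (0.521). No member was among the 3 nearest genes of another member. With 3 places and all tested genes competing for them, this was likely for any small set of genes, and no background share was computed. The distance also grows with a difference in span, so Dnmt1, which spanned 1.03 log2 units, could not lie near Tet1, which spanned 6.23. No conclusion about how the members relate was drawn from this outcome. Eng, the endothelial receptor endoglin, ranged from 6.91 to 9.32 over the arrays, and Nanog from 5.82 to 11.49. These distances describe patterns over the same 26 arrays, which share the runs described above.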

How the data were processed

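RNA was measured on Affymetrix Mouse Exon 1.0 ST arrays after 2 rounds of amplification, per the labels' protocols. The deposited values are log2 RMA values per probe set, made by the authors with Affymetrix Expression Console in its extended exon mode, per the labels and the submitters' processing notes; its version and the genome build are not given in the sources used here, and log base 2 was taken from RMA convention and the range of 0.831 to 15.6. It covers 631748 probe sets, 0 values missing; 306069 had 1 symbol, 6067 several and 319612 none. Of 21757 symbols, 3725 were updated through RefSeq (GRCm38.p6). Array medians lay between 5.32 and 5.51, and precision is limited by how many arrays there are. No 2 arrays were identical.

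The test across genes (4 or more probe sets each) was limma 3.58.1 run in R 4.3.3, with lmFit and a trended eBayes. Probe sets within genes were tested with treat at a minimum difference of 1, without a trend. The steps were run on simulated data with independent normal values and a shift added to 1 label. That simulation held no runs within a label, so it cannot show how often calls are false in these data. Differences are 129S2/SvPas minus C57BL/6. Named genes were all members, up to 4 genes past the threshold per related list by size of difference, Pou5f1, Nanog and Ngp as markers, the 3 nearest genes of members spanning 2 units, member probe sets past the threshold, and the 3 extreme relative differences each way of Dnmt3a and Dnmt3b; probe sets and genes beyond this rule were chosen after their values were seen. Members, lists and runs were chosen with earlier results of these data known. Of 103 related genes, 96 were tested and the others were not used here. Alternatives covered the gene summary, centring and quantile normalization, filters, array weights, and fits without ES13 and ES14 or without ES1 to ES12.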

Additional observations from a re-analysis of the deposited data

How the results depend on the processing

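No paired analysis was possible because the labels give the strains no shared replicate numbers. Both strain labels hold over 10 arrays, and single arrays were not left out in turn. Removing ES1 to ES12 left 1 gene higher and 0 lower by label, 0 members either way, 0 related genes either way and 0 probe sets within genes in either direction, with 2 arrays of one label. That setting also turned the sign of 3 members not called with all arrays, Tet2 (-1.97), Tet3 (-0.077) and Tdg (0.25). Among called genes it turned Dnmt3b (1.57), Tet1 (0.29), Trim28 (0.066), Trdmt1 (-0.28), Cxxc5 (0.27), Mbd1 (-0.53), Mbd2 (-0.75), Neil3 (-0.0034), Gadd45a (-1.45), Gadd45b (-1.63), Parp1 (0.31), Suv39h2 (0.81), Gldc (0.74) and Mthfd2 (-0.23), and none of these genes passed limma's test there. The cause was not tested beyond the markers given above.

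The count of members higher by label was 1, and became 2 with the median over all probe sets, 2 with arrays centred on their median gene value, 2 without the dimmer 50% of genes, 2 with array weights, and 3 without ES13 and ES14. Genes lower by label numbered 2077 without the dimmer 50%, against 4055, since fewer genes were tested. Within genes, 532 probe sets were higher and 497 lower. With no minimum difference these were 19278 and 17016, with no filter on dim probe sets 1313 and 1101, and without ES13 and ES14 1723 and 1738. Member probe sets were then 32 higher and 32 lower, 4 lower with no filter, and 2 higher and 6 lower without ES13 and ES14, against 0 and 2, and 1 lower when the gene value was a plain mean of the probe sets. Quantile normalization called Tdg lower (-0.33, limma adjusted p = 0.0273). Zbtb4 lost its call in 5 alternatives and Suv39h2 in 4 (limma adjusted p up to 0.187 and 0.0976), Gadd45b in 2 (up to 0.062) and Gadd45a in 1 (0.0504), besides the removal of ES1 to ES12. Low values limit what single probe sets can show: values below the array medians have little range left to fall.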
